A study of Mus musculus with 5 samples.

Results

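The genes described here are 31 interferon-stimulated genes, chosen by symbol from a table of 48440 genes, and all 31 were found in it. They were measured by RNA sequencing of CD4+CD25+ regulatory T cells (Tregs), which hold immune responses in check, from the spleens of C57B/6 mice. There were 3 libraries from mice of the genotype CD4-KLF10-KO (KO), labelled as a knockout of the zinc-finger transcription factor KLF10 in CD4 T cells, and 2 from wild-type mice (WT). All 5 came from mice on a high-fat diet, and the cells were enriched on magnetic beads, freshly isolated and not treated. The series concerns obesity and insulin resistance, and the comparison asks which transcripts of these preparations differ between KO and WT. The allele and the driver of the deletion, the age and sex of the mice and whether each library is 1 mouse are not stated in the labels. The sample codes begin with B in KO and A in WT, and the meaning of the letters is not stated, so anything they stand for, such as a batch, cannot be told apart from genotype. P-values cover only the variation among the 5 libraries, which may be technical.

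Interferons are cytokines that put cells into an antiviral state. Type I interferons bind a receptor of IFNAR1 and IFNAR2, whose Janus kinases activate transcription factors of the STAT family. STAT2 and IRF9 are parts of the resulting complex ISGF3, which binds a promoter motif called the interferon-stimulated response element (ISRE) and switches on genes of this kind. Interferon gamma acts through another receptor and another motif, the gamma-activated site (GAS). Many of these genes are also expressed at a resting level in lymphocytes, macrophages and other cells of the spleen. In bulk RNA, fewer cells of a type and less RNA per cell cannot be told apart.

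Most of the promoters searched held the ISRE, though not all did. Promoter windows of 300 bases, 250 before and 50 after the annotated start (RefSeq, GRCm38.p6), were found for 22 of the 31 genes. The ISRE was searched on both strands as GAAA, any 2 bases, and GAAA again. At least 1 match was present in 13 of these 22 genes (59.1%), against 3.99% of the 27025 genes with a window. The 6 promoters with the most matches are shown, with ties settled by the higher level, and 2 more, those of Rsad2 and Oas3, were added after their values were seen because the results turn on them. Each is written 5′ to 3′ on the strand of the gene, with the ISRE matches in capitals.

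Isg15: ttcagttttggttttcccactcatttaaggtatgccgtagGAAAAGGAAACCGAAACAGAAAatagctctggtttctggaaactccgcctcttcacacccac

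Gbp3: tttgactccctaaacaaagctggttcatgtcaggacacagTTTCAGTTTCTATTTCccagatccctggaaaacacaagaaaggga

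Bst2: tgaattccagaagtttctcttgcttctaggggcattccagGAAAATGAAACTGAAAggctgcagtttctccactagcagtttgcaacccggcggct

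Oas1a: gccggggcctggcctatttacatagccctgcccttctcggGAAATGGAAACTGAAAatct

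Ifit1: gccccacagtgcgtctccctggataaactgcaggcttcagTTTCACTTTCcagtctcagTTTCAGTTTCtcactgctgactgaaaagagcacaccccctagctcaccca

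Ifitm3: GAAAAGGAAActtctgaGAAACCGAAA

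Rsad2: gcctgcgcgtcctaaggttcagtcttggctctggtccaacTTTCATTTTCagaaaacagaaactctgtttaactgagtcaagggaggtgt

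Oas3: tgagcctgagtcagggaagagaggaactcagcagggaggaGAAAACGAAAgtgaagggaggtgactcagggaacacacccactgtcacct

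The Isg15 stretch (chr4:156200835-156200936, minus strand) holds 3 overlapping matches, the first starting 78 and the last 66 bases before the start of the gene. In Gbp3 (chr3:142559959-142560043, plus strand), Bst2 (chr8:71537547-71537642, minus strand) and Oas1a (chr5:120907526-120907585, minus strand) 2 matches overlap in the same way. In Ifit1 (chr19:34640745-34640853, plus strand) 2 matches stand apart. In Ifitm3 (chr7:141010716-141010742, minus strand) both lie within 29 bases after the annotated start, and only that stretch is shown. Rsad2 (chr12:26456523-26456612, minus strand) and Oas3 (chr5:120777685-120777774, minus strand) each hold 1 match, at 120 and 75 bases before the start. A match is a description of letters and not a measured binding site.

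The libraries held 25622614 to 30521797 counts each, and 14460 genes passed the filter on low counts. Levels are given as CPM, counts divided by the library total and scaled by the TMM method of edgeR. Klf10, the targeted gene, was at 15.96, 12.6 and 8.87 CPM in KO 1, 2 and 3, against 22.03 and 22.6 CPM in WT 1 and 2, lower in every KO library and not at 0 (log2 change −0.84, SE 0.22, edgeR adjusted p = 0.136); the labels do not say which part of the gene is deleted. The haemoglobin genes Hba-a1, Hba-a2, Hbb-bs and Hbb-bt took 8.25%, 5.36% and 5.32% of all counts in KO 1, 2 and 3, against 2.03% and 1.42% in WT 1 and 2. KO 1 held the most and WT 2 the least, and KO 2 and KO 3 were nearly equal. The summed level of 11 other erythroid genes was 2779 to 5705 CPM in KO and 820.1 to 987 CPM in WT, that of 12 red pulp macrophage markers was 1160 to 1481 CPM in KO and 451 to 709 CPM in WT, and that of 15 pan-T cell genes was 3374 to 3547 CPM in KO and 3835 to 4458 CPM in WT. All 11 erythroid and all 12 macrophage markers were higher in every KO than in every WT library, as were 17.6% of all genes. Of these markers edgeR called 0 erythroid and 3 macrophage genes higher (0.228% of all genes), and DESeq2 called 11 of each (5.62% of all genes). The sum of 6 Treg genes was 1575 to 1591 CPM in KO and 1606 to 1997 CPM in WT, and Foxp3, which defines Tregs, was at 474, 489 and 477 CPM in KO 1, 2 and 3, against 577 and 476 CPM in WT 1 and 2. Il2ra and Lrrc32 were lower in every KO library (log2 change −0.42 and −0.57, edgeR adjusted p = 0.104 and 0.0745), and the other 4 Treg genes overlapped. Of the 15 pan-T cell genes, 10 were lower in every KO library (17.4% of all genes) and 5 overlapped. Of both lists edgeR called 0 genes, and DESeq2 called 2 Treg and 6 pan-T cell genes lower (1.45% of all genes).

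A small set of interferon-stimulated genes led by Rsad2, Isg15 and Isg20 had higher levels in KO, and for most of the others the difference between KO and WT was small beside the spread between libraries. All 31 genes passed the filter on low counts. Of these, 19 had a log2 change above 0 and 12 below, with a median of 0.062 beside −0.014 over all genes tested. By edgeR's quasi-likelihood test with Benjamini-Hochberg adjustment over all genes, 0 of 31 passed a false discovery rate of 0.05, where 0.284% of all genes passed (0.228% higher and 0.0553% lower). An unadjusted p under 0.05 was reached by 7 higher genes (22.6%, against 10.7% of all genes) and 2 lower genes (6.45%, against 5.62%). The DESeq2 Wald test called 6 higher genes, Rsad2, Isg15, Isg20, Oas3, Cmpk2 and Ifitm3 (19.4%, against 5.62% of all genes), and 1 lower gene, Oasl2 (3.23%, against 1.45%). At a false discovery rate of 0.10, edgeR called 5 of the same 6 genes, all but Ifitm3, where 4% of all genes passed. The calls depended on single libraries. Without KO 1 edgeR called Rsad2, Isg15 and Isg20 at 0.05, where 2.32% of all genes passed. Over all genes the 41 calls became 334 without KO 1, 11 without KO 3 and 1 without KO 2.

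**Figure D1:**
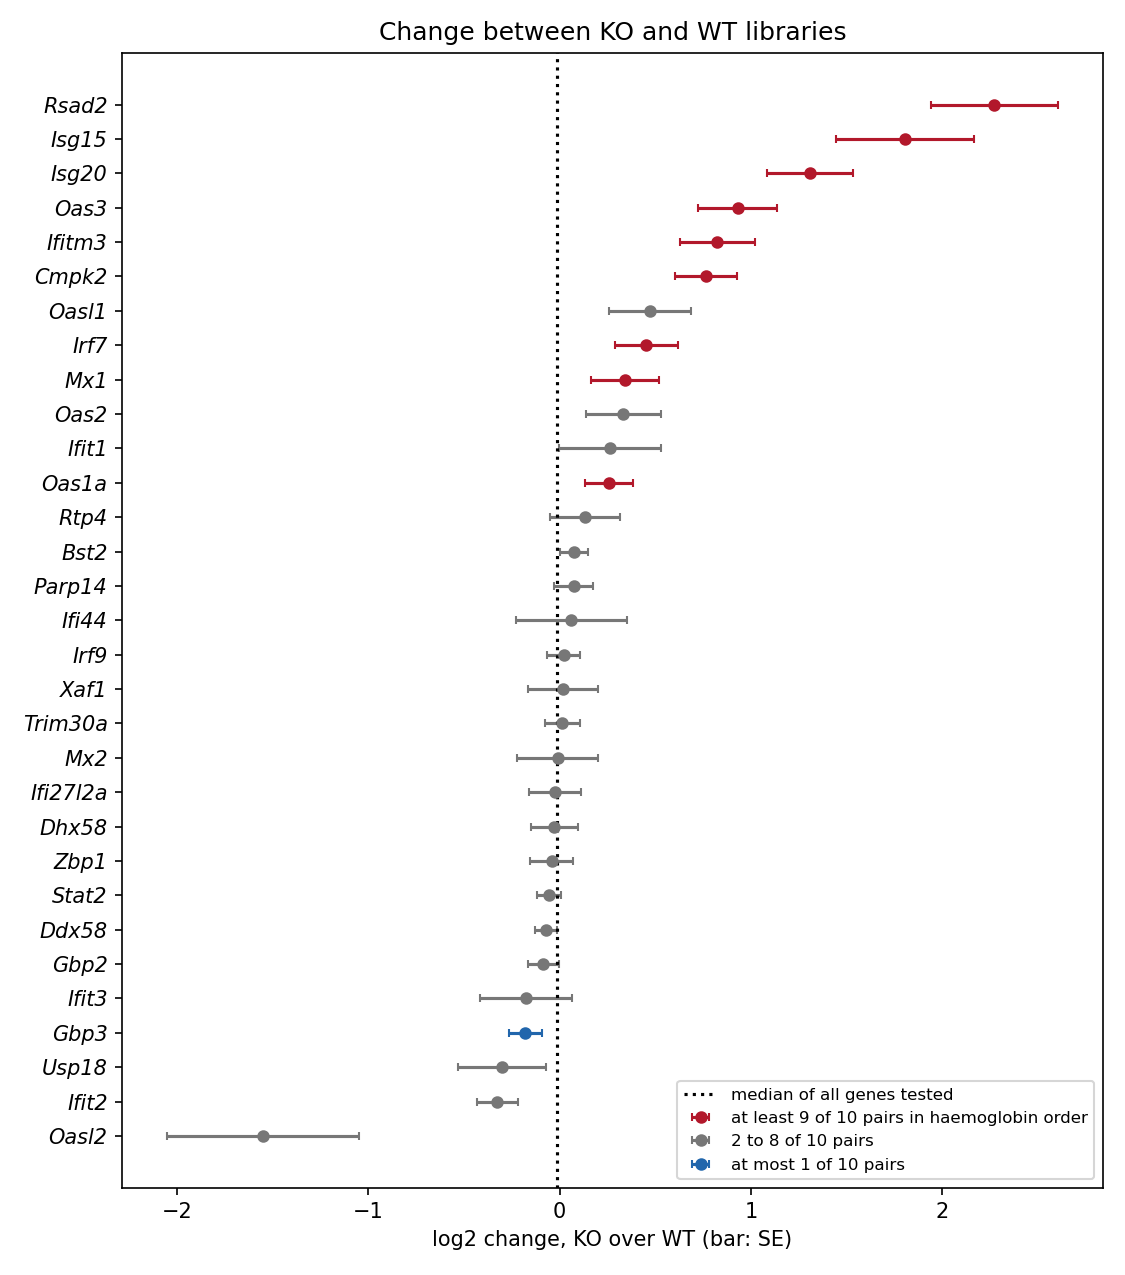
Log2 change of each of the 31 genes, KO over WT, with its SE from the edgeR fit of 3 KO and 2 WT libraries; colour gives the number of library pairs in haemoglobin order, and the dotted line is the median of all genes tested. Rsad2 stands highest at 2.27 and Oasl2 lowest at −1.55, and most of the other genes lie near 0.

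The groups did not overlap in 12 genes (38.7%, against 35.0% of all genes). In 8 every KO library lay above both WT libraries (25.8%, against 17.6% of all genes), and in 4, Oasl2, Ifit2, Gbp3 and Ddx58, every KO library lay below (12.9%, against 17.4%). With libraries scaled to pan-T cell genes the log2 changes of Gbp3 and Ddx58 were above 0, at 0.053 and 0.16, while those of Oasl2 and Ifit2 were still below. Summed over the 31 genes, the level was 2173, 1855 and 1703 CPM in KO 1, 2 and 3, against 1528 and 1308 CPM in WT 1 and 2. Rsad2 alone made up 25.6%, 16.2% and 17.3% of this sum in KO 1, 2 and 3, against 6.02% and 5.13% in WT 1 and 2.

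Rsad2 showed the largest difference of the 31. It encodes viperin, an enzyme that makes a chain-terminating nucleotide and so blocks viral RNA synthesis, and it lies on chromosome 12, from 26442753 to 26456452 on the minus strand (GRCm38). Rsad2 was at 557, 301 and 295 CPM in KO 1, 2 and 3, against 91.9 and 67.1 CPM in WT 1 and 2. Every KO library was far above either WT library, and KO 1 stood well above the other KO libraries (log2 change 2.27, SE 0.33, edgeR adjusted p = 0.0635; over the alternative settings the adjusted p ran from 3.9e-05 to 0.983). By the DESeq2 Wald test its log2 change was 2.28 (SE 0.46) with an adjusted p of 3.9e-05. Cmpk2 is a mitochondrial nucleotide kinase that supplies the substrate of viperin, and lies next to Rsad2, 12.8 kb away on the opposite strand. It was at 42.6, 33.1 and 29.2 CPM in KO 1, 2 and 3, against 21.04 and 20.04 CPM in WT 1 and 2 (log2 change 0.77, SE 0.16, edgeR adjusted p = 0.089; alternatives 0.00173 to 0.971). The KO libraries again lay above WT, with a smaller difference than that of Rsad2.

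Isg15 is a ubiquitin-like protein that is joined to other proteins during an interferon response. It lies on chromosome 4, from 156199424 to 156200818 on the minus strand, and its promoter holds the 3 overlapping matches shown above. Its level was 113, 58.7 and 54.1 CPM in KO 1, 2 and 3, against 24.6 and 18.3 CPM in WT 1 and 2, with KO 1 about as high as KO 2 and KO 3 together (log2 change 1.81, SE 0.36, edgeR adjusted p = 0.0818; alternatives 0.00338 to 0.941). Isg20, an exonuclease that degrades RNA, lies on chromosome 7, from 78913424 to 78920396 on the plus strand, and no ISRE match was found in its 3 promoter windows. It was at 197, 124 and 127 CPM in KO 1, 2 and 3, against 64.6 and 55.8 CPM in WT 1 and 2 (log2 change 1.31, SE 0.22, edgeR adjusted p = 0.0696; alternatives 6.2e-07 to 0.969). For both genes KO 1 was highest and the groups did not overlap. A transcript of AC151275.1 is 95.2% identical to Isg15 over 482 bases, so some Isg15 reads are uncertain.

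Oas3 belongs to the enzymes that sense double-stranded RNA and make 2′-5′-linked oligoadenylate, an antiviral messenger. Oas3, on chromosome 5, from 120753098 to 120777661 on the minus strand, was at 69.6, 57.1 and 43.9 CPM in KO 1, 2 and 3, against 33.2 and 26.4 CPM in WT 1 and 2 (log2 change 0.93, SE 0.20, edgeR adjusted p = 0.0919; alternatives 7.2e-04 to 0.965). Ifitm3, a membrane protein that blocks the entry of viruses from endosomes, was at 18.00, 14.6 and 11.6 CPM in KO 1, 2 and 3, against 8.64 and 7.98 CPM in WT 1 and 2 (log2 change 0.82, SE 0.20, edgeR adjusted p = 0.109; alternatives 0.00728 to 0.977). In both genes the order KO 1, KO 2, KO 3, WT 1, WT 2 held without exception. A transcript of Gm6885 is 91.6% identical to Ifitm3 over 356 bases. Part of the Oas3 transcript resembles those of many other genes, such as Xpo6 with 93.1% identity over 335 bases. Some reads of Ifitm3 and Oas3 are therefore uncertain.

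**Figure D2:**
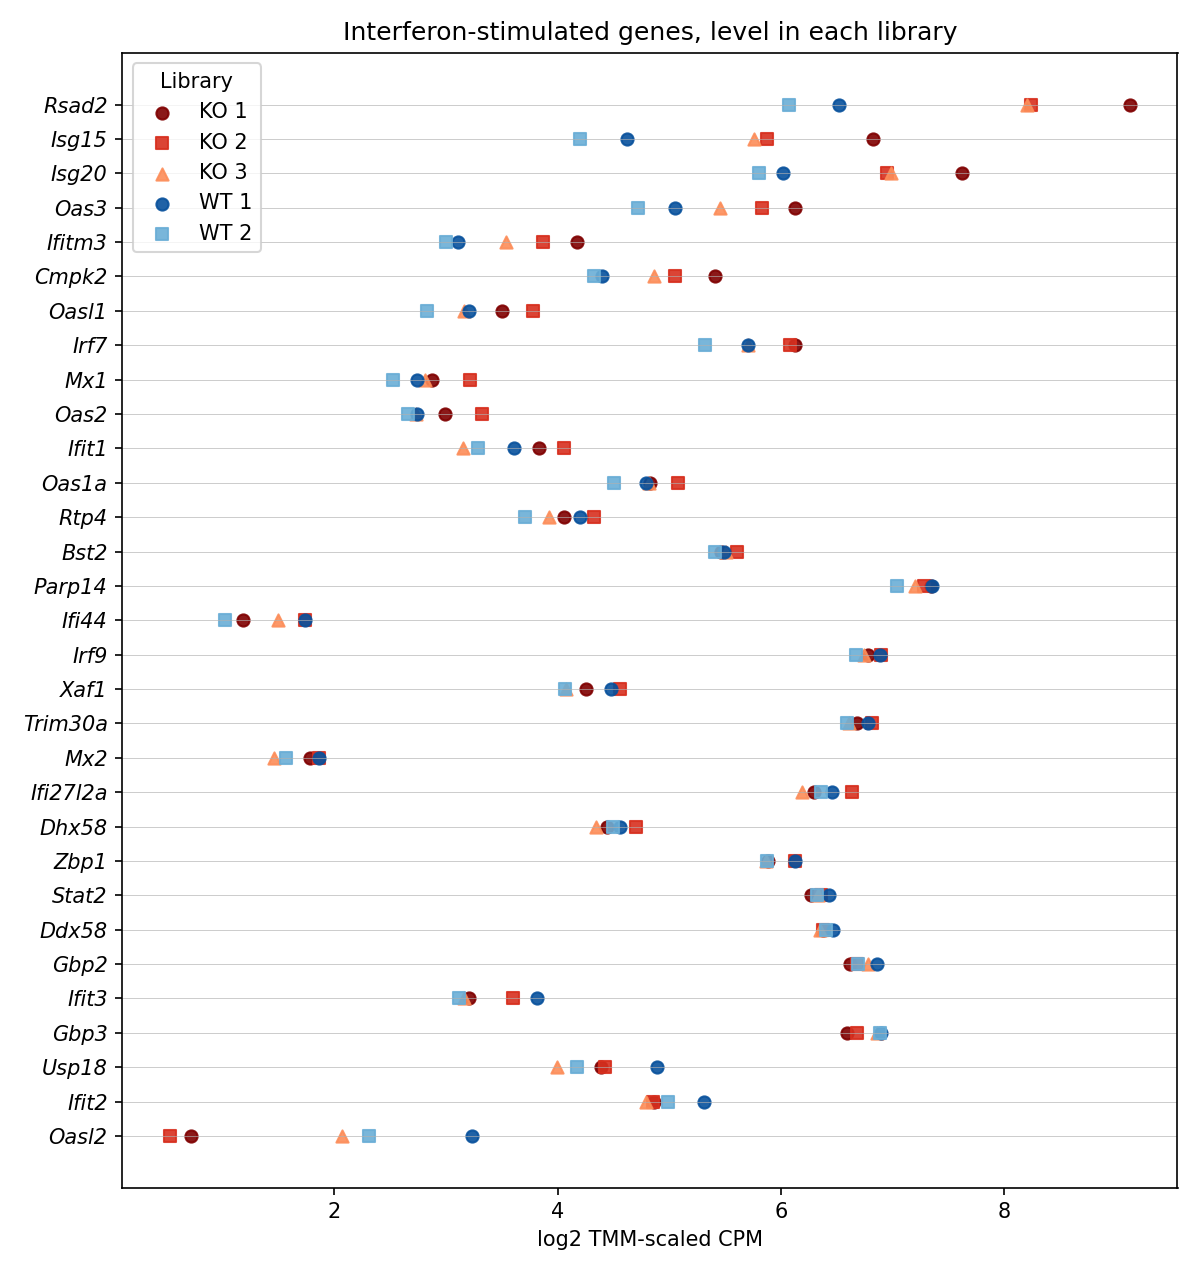
Level of each of the 31 genes in every library, as log2 TMM-scaled CPM, with genes ordered from the highest log2 change at the top to the lowest at the bottom. The 3 KO points stand apart to the right of the 2 WT points for Rsad2, Isg15, Isg20, Oas3, Ifitm3 and Cmpk2 and lie among or near them for most genes below.

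Members were then sorted by whether their level went with the haemoglobin content of the libraries. With 5 libraries no correlation was computed. Instead, each of the 10 pairs of libraries was asked whether the one with more haemoglobin also had the higher level, and a gene was said to follow haemoglobin with at least 9 of 10 pairs. This held for 9 of 31 genes (29.03%, against 9.28% of all genes): Rsad2, Isg15, Isg20, Oas3, Cmpk2, Ifitm3, Irf7, Oas1a and Mx1. All 10 pairs held for 5 of them, Rsad2, Isg15, Oas3, Cmpk2 and Ifitm3 (16.1%, against 2.05%). The opposite order, with at most 1 of 10 pairs, was seen for 1 gene, Gbp3 (3.23%, against 7.68%), and 21 genes did neither. Scaled to pan-T cell genes, 12 genes followed haemoglobin (against 16.4% of all genes) and 0 opposed it. Without single libraries, 5 to 8 genes had all 6 remaining pairs in order, the 5 without WT 2 (against 5.90% to 8.75% of all genes).

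Part of this order was common to the whole family. WT 1 was above WT 2 for 31 of 31 genes, against 51.5% of all genes, and KO 2 was above KO 3 for 27 of 31 (87.1%, against 50.9%). The 9 differed from the others in the place of KO 1 and in lying above WT, and the rule for choosing them uses both. In 8 of the 9 every KO library lay above both WT libraries, which held for 0 of the other 22 (17.6% of all genes). KO 1 lay above both KO 2 and KO 3 for 10 of the 31 (32.3%, against 34.6% of all genes). It was the highest library for 7 of these 9 genes (all but Oas1a and Mx1, which were highest in KO 2) and for 0 of the other 22, where 22.3% of all genes were highest in KO 1. Of the other 22, 13 were highest in KO 2 (59.1%, against 14.9%) and 9 in WT 1 (40.9%, against 26.0%). The 4 pairs within a genotype were all in haemoglobin order for 9 genes (29.03%, against 7.97%), among them Ifit2, Ddx58 and Parp14, which are not in the set of 9, and 0 genes had all 4 reversed (8.51% of all genes).

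**Figure D3:**
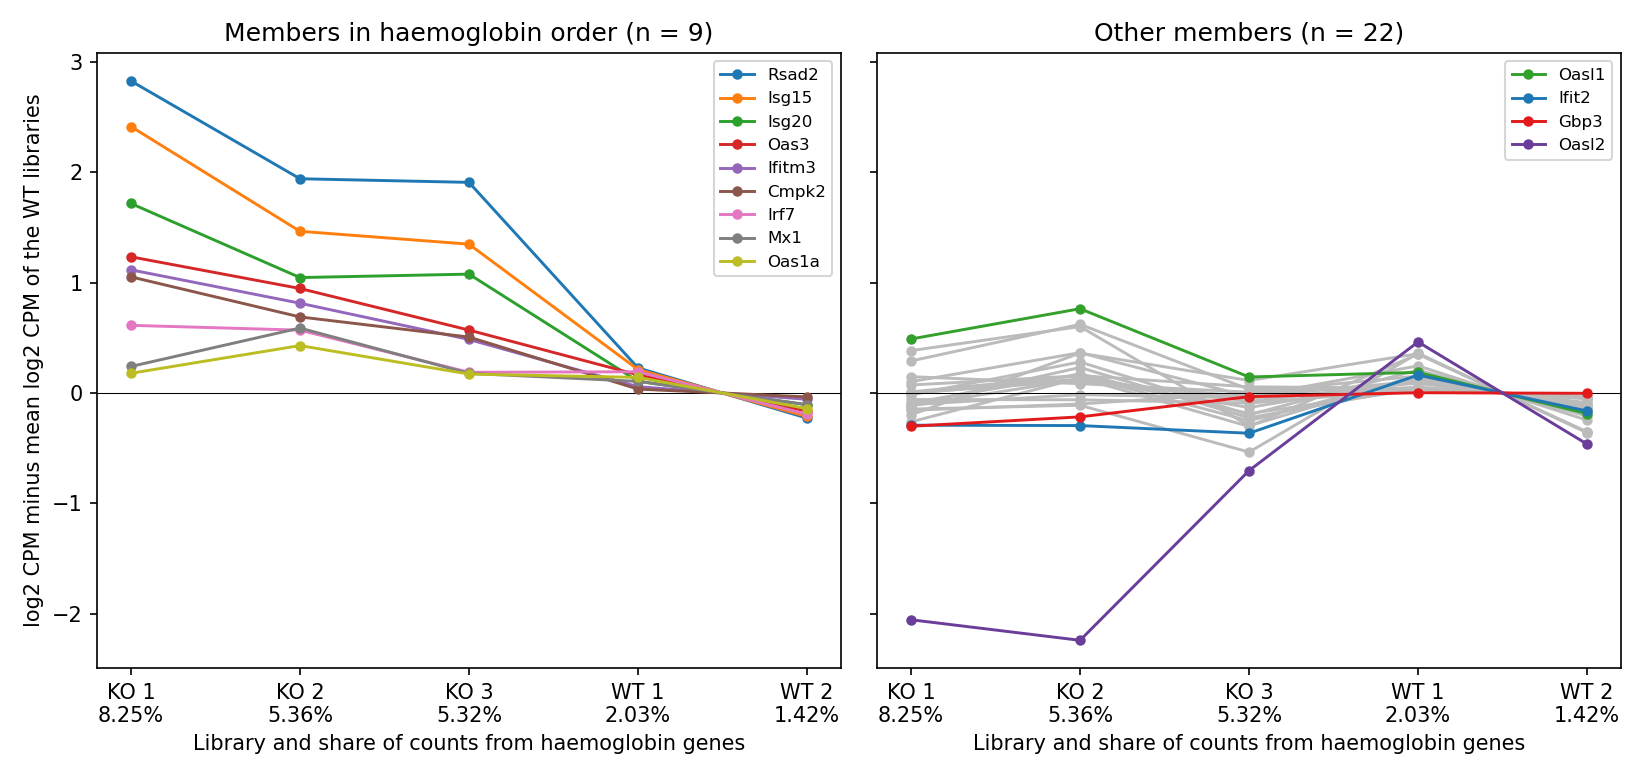
Level of each gene in the 5 libraries, as log2 CPM minus the mean log2 CPM of the WT libraries, with the share of counts from haemoglobin genes under each library; left, the 9 genes that follow haemoglobin, right, the other 22, of which 4 are coloured and named and the rest are grey. The Rsad2, Isg15 and Isg20 lines drop steeply from KO 1 to WT, and Oasl2 runs the other way.

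The summed level of the 9 genes was higher in KO, and that of the other 22 overlapped between the groups. The rule that chose the 9 uses pairs of KO against WT libraries, so this split of the sum follows in part from the choice. Their sum was 1103, 699.7 and 647 CPM in KO 1, 2 and 3, against 331 and 264 CPM in WT 1 and 2. The sum of the other 22 genes was 1070, 1155 and 1056 CPM in KO 1, 2 and 3, against 1197 and 1044 CPM in WT 1 and 2, and these groups overlap. As means it was 1094 ± 54.05 CPM in KO (SD, n = 3) and 1120 ± 108 CPM in WT (SD, n = 2). The median log2 change was 0.82 for the 9 and −0.0091 for the 21 genes that do neither, as a description, since the choice of the 9 fixes their direction.

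The genes differed in how closely they kept step with haemoglobin. Counts of Rsad2 per 1000 haemoglobin counts were 6.42, 5.66 and 5.54 in KO 1, 2 and 3, against 4.65 and 4.796 in WT 1 and 2, so the highest library was 1.38 times the lowest, against 8.30 times for CPM. For Isg15 the ratio was 1.31, 1.10 and 1.02 in KO 1, 2 and 3, against 1.25 and 1.31 in WT 1 and 2, a range of 1.29 times, against 6.17 times for CPM. The ratio of Isg15 overlapped between KO and WT, that of Rsad2 was still higher in KO, and that of Isg20 was lower in KO. Isg20 had 2.27, 2.33 and 2.38 in KO 1, 2 and 3, against 3.27 and 3.99 in WT 1 and 2, a range of 1.75 times, against 3.54 times for CPM. The range was narrower per haemoglobin count than per library for 4 genes, these 3 and Oas3 (12.9%, against 4.77% of all genes with no library at 0). Haemoglobin itself ranged 6.21-fold in CPM, which of the 31 genes Rsad2 and Oasl2 exceeded.

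**Figure D4:**
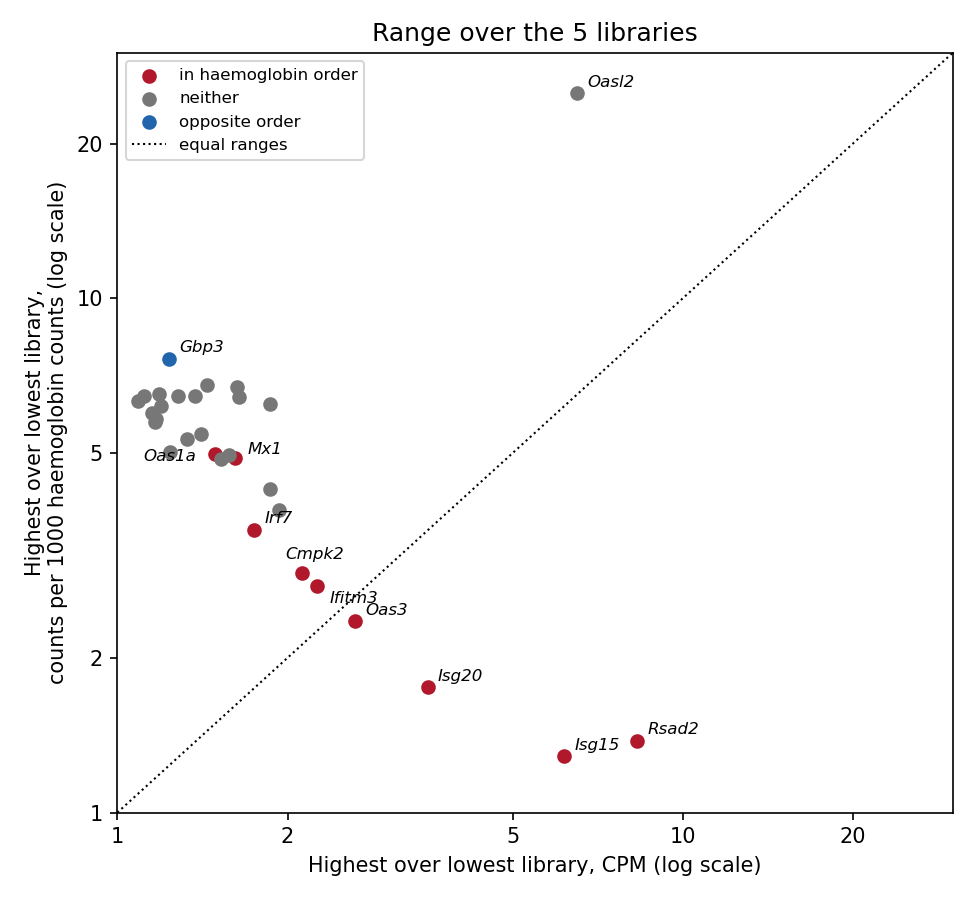
Highest over lowest library for each of the 31 genes, in CPM on the horizontal axis and in counts per 1000 haemoglobin counts on the vertical axis (both log scales); the dotted line marks equal ranges. Rsad2, Isg15, Isg20 and Oas3 lie below the line, and the other 27 genes lie above it.

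Haemoglobin and genotype go together in these libraries and cannot be told apart by them alone. With the log2 haemoglobin share as a covariate beside genotype, the log2 change was −0.13 (SE 0.29) for Rsad2, −0.82 (SE 0.37) for Isg15, −0.29 (SE 0.32) for Isg20, −0.41 (SE 0.40) for Oas3, −0.25 (SE 0.38) for Cmpk2 and −0.27 (SE 0.51) for Ifitm3. In that fit edgeR called 0 of 14460 genes, with an unadjusted p under 0.05 for 719 genes and 0 of the 31. With the summed red pulp macrophage markers as the covariate instead, the log2 change was 2.43 (SE 0.87) for Rsad2, 2.14 (SE 0.95) for Isg15, 1.59 (SE 0.60) for Isg20, 0.77 (SE 0.57) for Oas3, 1.003 (SE 0.46) for Cmpk2 and 0.97 (SE 0.55) for Ifitm3. Here edgeR called 0 of 14460 genes, with an unadjusted p under 0.05 for 1445 genes and 7 of the 31. Those 7 were Rsad2 and Isg20, both higher, and Ifit2 (log2 change −0.78), Ifit3 (−1.45), Usp18 (−1.28), Zbp1 (−0.58) and Ifi44 (−1.37), all lower. The same pair count against the macrophage sum, which was highest in KO 2, gave at least 9 of 10 for 3 of 31 genes, Oas1a, Mx1 and Bst2, where 5.51% of all genes did, and 8 of 10 for Rsad2 and Isg15. Against the other erythroid genes, which put KO 3 above KO 2, it gave 6 of 31, where 7.81% of all genes did. Isg20 had 10 of 10 and Rsad2, Isg15, Oas3, Cmpk2 and Ifitm3 had 9.

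Among signalling and transcription factors, Irf7 leaned higher in KO and the others did not separate. Irf7, which amplifies type I interferon production, was at 70.0, 67.9 and 52.1 CPM in KO 1, 2 and 3, against 52.3 and 40.03 CPM in WT 1 and 2, so KO 3 and WT 1 were level (log2 change 0.45, SE 0.17, edgeR adjusted p = 0.248; alternatives 0.0299 to 0.996). Its annotated gene overlaps Phrf1 by 45 bases, so some reads could belong to either. Irf9, the DNA-binding part of ISGF3, was at 109.9, 119 and 107 CPM in KO 1, 2 and 3, against 119 and 102 CPM in WT 1 and 2 (log2 change 0.022, SE 0.087, edgeR adjusted p = 0.933). It overlaps Rnf31 by 123 bases on the same strand, so its reads there are uncertain too. Stat2, another part of ISGF3, was at 77.3, 82.3 and 80.6 CPM in KO 1, 2 and 3, against 86.2 and 80.2 CPM in WT 1 and 2 (log2 change −0.056, SE 0.064, edgeR adjusted p = 0.731). Both were nearly flat over the libraries, the highest Stat2 library being 1.12 times the lowest. Usp18 removes ISG15 from proteins and damps the receptor. It was at 20.9, 21.4 and 15.98 CPM in KO 1, 2 and 3, against 29.7 and 18.04 CPM in WT 1 and 2, with WT 1 highest and the groups overlapping (log2 change −0.30, SE 0.23, edgeR adjusted p = 0.581).

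The sensors of foreign nucleic acid showed small differences. Ddx58, which encodes RIG-I, was at 83.2, 83.0 and 81.4 CPM in KO 1, 2 and 3, against 88.6 and 84.8 CPM in WT 1 and 2 (log2 change −0.071, SE 0.057, edgeR adjusted p = 0.598). Each KO library was below both WT libraries, by little. Dhx58, which encodes the related helicase LGP2, was at 21.7, 26.00 and 20.3 CPM in KO 1, 2 and 3, against 23.6 and 22.5 CPM in WT 1 and 2, and Zbp1, a sensor of Z-form nucleic acid, at 59.00, 69.7 and 58.4 CPM in KO 1, 2 and 3, against 69.7 and 58.6 CPM in WT 1 and 2, and for both the groups overlapped (edgeR adjusted p = 0.939 and 0.896).

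The oligoadenylate synthetase family was the most mixed. Beside Oas3, Oas1a was at 28.4, 33.8 and 28.2 CPM in KO 1, 2 and 3, against 27.6 and 22.7 CPM in WT 1 and 2 (log2 change 0.26, SE 0.13, edgeR adjusted p = 0.383), and its KO libraries lay just above WT. Its transcript is 97.6% identical to that of Oas1g over 1861 bases, so reads of the pair are uncertain. Oas2 was at 7.94, 9.996 and 6.65 CPM in KO 1, 2 and 3, against 6.66 and 6.33 CPM in WT 1 and 2 (log2 change 0.33, SE 0.20, edgeR adjusted p = 0.463), where KO 3 and WT 1 could not be separated. Oasl1, a relative that in the mouse holds back translation of Irf7, was at 11.3, 13.7 and 8.94 CPM in KO 1, 2 and 3, against 9.20 and 7.10 CPM in WT 1 and 2 (log2 change 0.47, SE 0.21, edgeR adjusted p = 0.349), again with KO 3 and WT 1 side by side. Oasl2 went the other way. It had 42, 38 and 128 counts in KO 1, 2 and 3, against 285 and 129 counts in WT 1 and 2, or 1.64, 1.44 and 4.19 CPM in KO 1, 2 and 3, against 9.40 and 4.95 CPM in WT 1 and 2 (log2 change −1.55, SE 0.50, edgeR adjusted p = 0.196; alternatives 0.0482 to 0.969). KO 1 and KO 2 were low, and KO 3 was close to WT 2 on the CPM scale. The DESeq2 Wald test called it lower (adjusted p = 0.0482), with a log2 change of −1.56 (SE 0.53).

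The IFIT proteins, which bind viral RNA, had smaller log2 changes than Rsad2. Ifit2 was at 29.03, 28.96 and 27.6 CPM in KO 1, 2 and 3, against 39.8 and 31.7 CPM in WT 1 and 2 (log2 change −0.33, SE 0.11, edgeR adjusted p = 0.202; alternatives 0.175 to 0.941), below WT in every KO library. Ifit3 was at 9.23, 12.2 and 8.97 CPM in KO 1, 2 and 3, against 14.1 and 8.67 CPM in WT 1 and 2 (log2 change −0.17, SE 0.24, edgeR adjusted p = 0.775) and Ifit1 at 14.3, 16.6 and 8.91 CPM in KO 1, 2 and 3, against 12.2 and 9.79 CPM in WT 1 and 2 (log2 change 0.26, SE 0.27, edgeR adjusted p = 0.687), with overlapping groups in both. Ifit3 has a close copy, Ifit3b, with 97.8% identity over 1700 transcript bases, so the share of reads given to each is uncertain.

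Membrane and GTPase effectors other than Ifitm3 differed little. Bst2, or tetherin, which holds budding virus at the cell surface and also marks plasmacytoid dendritic cells in the mouse, was at 44.02, 48.8 and 45.4 CPM in KO 1, 2 and 3, against 45.1 and 42.4 CPM in WT 1 and 2 (log2 change 0.075, SE 0.072, edgeR adjusted p = 0.671). Mx1, a dynamin-like GTPase against influenza virus whose allele in C57BL/6 mice makes no working protein, was at 7.32, 9.31 and 7.01 CPM in KO 1, 2 and 3, against 6.66 and 5.76 CPM in WT 1 and 2 (log2 change 0.34, SE 0.18, edgeR adjusted p = 0.408). Mx1 was slightly higher in KO and Mx2, which GENCODE M21 annotates as a polymorphic pseudogene, was not. Mx2 was at 3.44, 3.65 and 2.75 CPM in KO 1, 2 and 3, against 3.63 and 2.96 CPM in WT 1 and 2 (log2 change −0.0091, SE 0.21, edgeR adjusted p = 0.989). Parts of the Mx1 and Mx2 transcripts are 94.8% identical over 920 bases, so reads there are uncertain. Gbp3, a guanylate-binding protein that attacks the vacuoles of intracellular pathogens, was at 96.4, 102 and 116 CPM in KO 1, 2 and 3, against 119 and 119 CPM in WT 1 and 2 (log2 change −0.18, SE 0.088, edgeR adjusted p = 0.386), the only gene of the 31 in the opposite order to haemoglobin. Its neighbour Gbp2 was at 98.4, 102 and 109.7 CPM in KO 1, 2 and 3, against 116 and 103 CPM in WT 1 and 2 (log2 change −0.086, SE 0.081, edgeR adjusted p = 0.657).

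The remaining 6 genes showed no separation. Rtp4, a chaperone that brings receptors to the membrane, Ifi44, Ifi27l2a, the apoptosis factor Xaf1, the TRIM family gene Trim30a and the ADP-ribosyltransferase Parp14 had log2 changes between −0.023 and 0.13, and the groups overlapped in all 6 (edgeR, 0 with an unadjusted p under 0.05 and 0 called by DESeq2). Parp14 was at 162, 155 and 147 CPM in KO 1, 2 and 3, against 163 and 132 CPM in WT 1 and 2. Trim30a was at 103, 112 and 97.6 CPM in KO 1, 2 and 3, against 110.0 and 96.1 CPM in WT 1 and 2, and its close relative Trim30d is 90.1% identical over 1719 bases, which makes its reads uncertain. Ifi27l2a was at 78.8, 99.7 and 72.7 CPM in KO 1, 2 and 3, against 88.0 and 82.1 CPM in WT 1 and 2. In these 3 genes at least 1 WT library lay within or above the range of the KO libraries. Xaf1 was at 19.1, 23.5 and 16.9 CPM in KO 1, 2 and 3, against 22.3 and 16.7 CPM in WT 1 and 2. Rtp4 was at 16.7, 19.99 and 15.2 CPM in KO 1, 2 and 3, against 18.4 and 13.1 CPM in WT 1 and 2. Ifi44 was at 2.27, 3.34 and 2.82 CPM in KO 1, 2 and 3, against 3.33 and 2.03 CPM in WT 1 and 2. In all 3 KO 2 was the highest KO library, and WT 1 lay above WT 2. A transcript of Gm45338 is 100% identical to Rtp4 over 296 bases. Part of the Xaf1 transcript resembles those of many other genes, such as Map4 with 92.9% identity over 210 bases. Some reads of Rtp4 and Xaf1 are therefore uncertain.

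Neighbouring genes of the 31 had log2 changes of differing size. Oas2 and Oas3 lie 3.24 kb apart on the minus strand of chromosome 5 with log2 changes of 0.33 and 0.93. Oasl2 and Oasl1 lie 11.01 kb apart with −1.55 and 0.47. Ifit2 and Ifit3, 7.11 kb apart on chromosome 19, had −0.33 and −0.17. Rsad2 and Cmpk2, on chromosome 12, were both in haemoglobin order in all 10 pairs. Differences between neighbours were not tested.

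**Figure D5:**
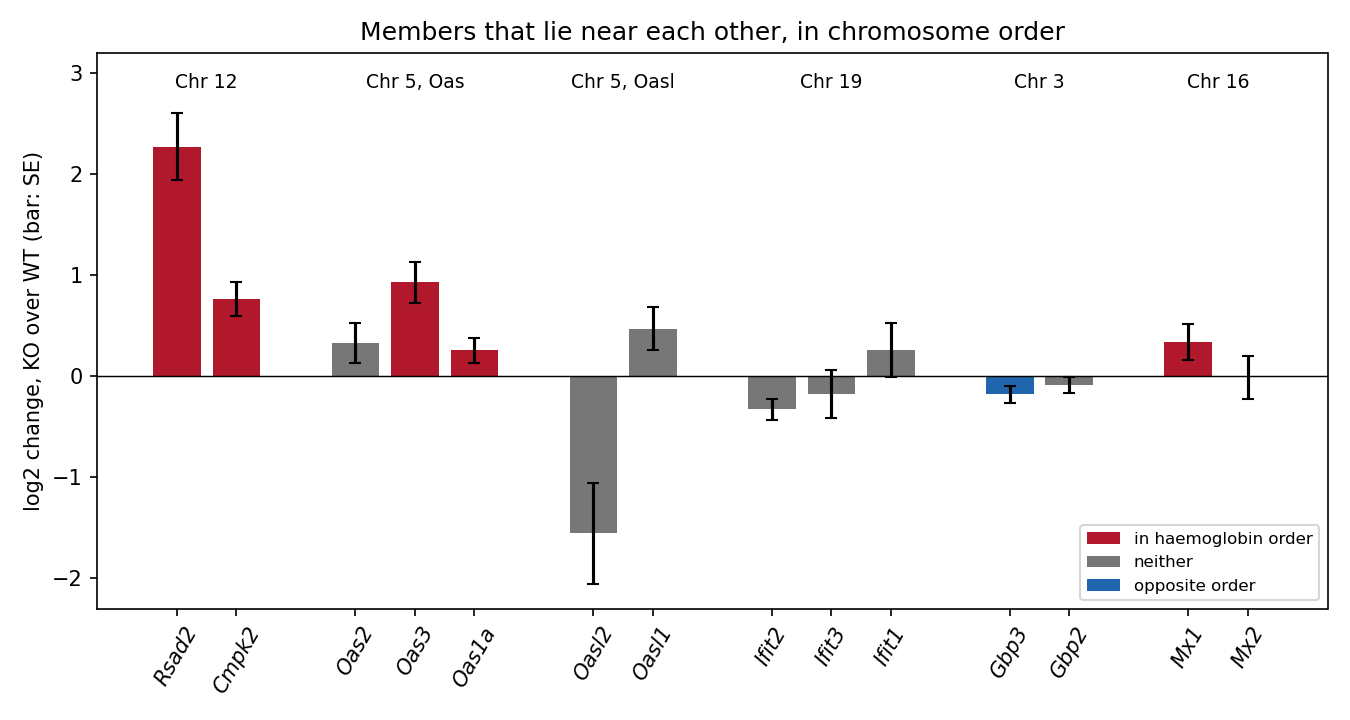
Log2 change, KO over WT, with its SE (edgeR, 3 KO and 2 WT libraries), for members that lie near each other, in chromosome order within each group; colour gives the class of haemoglobin order. Oasl2 at −1.55 and Oasl1 at 0.47 stand on opposite sides of 0, and Rsad2 at 2.27 stands above its neighbour Cmpk2 at 0.77.

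An ISRE match was present at a like share in the genes that follow haemoglobin and in the others. Of the 9, 8 had a window and 5 of these held a match (62.5%), and of the other 22, 14 had a window and 8 held one (57.1%), beside 3.99% of all genes. The GAS, searched as TTCNNNGAA, was present in 3 of 8 and 2 of 14, beside 9.55% of all genes, and in Ifitm3 and Bst2 it overlaps an ISRE match. A motif of the erythroid GATA factors, searched as AGATAA on both strands, was present in 3 of 8, Oas3, Isg20 and Irf7, and in 2 of 14, Oasl2 and Irf9, beside 12.7% of all genes. The KLF-type motif CCACACCC, searched on both strands, was present in 1 of 8, Irf7, and in 2 of 14, Gbp2 and Ifit3, beside 4.09% of all genes. No difference between the 8 and the 14 was tested. Cmpk2, Isg20 and Irf7 held no ISRE match in these windows.

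Levels of different genes can be compared only per length, for which the deposited TPM values were used. TPM are shares of a library, and haemoglobin took more of them in KO. Hbb-bs was at 92166 TPM in KO 1 and 18172.5 TPM in WT 2. The TPM of other genes are lowered by this in KO, so KO and WT levels were compared by CPM. Ifi27l2a was the most abundant of the 31 in both groups, at 356 to 503 TPM in KO and 443 to 492 TPM in WT. Isg15 ranked next in KO and 6th in WT, at 166 to 313 TPM in KO and 60.7 to 84.3 TPM in WT. Rsad2 ranked 3rd in KO and 10th in WT, at 158 to 269 TPM in KO and 38.8 to 54.9 TPM in WT, and Isg20 ranked 4th in KO and 5th in WT, at 155 to 222 TPM in KO and 75.0 to 89.9 TPM in WT. Bst2 ranked 5th in KO and next to Ifi27l2a in WT, at 120.4 to 149 TPM in KO and 139 to 153 TPM in WT. Its mean was lower in KO by TPM (136 in KO and 146 in WT) but slightly higher by CPM (46.1 in KO and 43.7 in WT). In KO the ranges of Isg15, Rsad2 and Isg20 overlapped each other. Ifi44 was the least abundant in both groups, at 0.774 to 1.27 TPM in KO and 0.83 to 1.41 TPM in WT.

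The rest of the interferon pathway showed no call in either direction by edgeR with TMM or by DESeq2. With pan-T cell scaling edgeR called 3 of 16 genes of nucleic acid sensing higher, where 6.73% of all genes were. It called 0 genes of the other pathway lists. Of 21 interferon genes, 16 had 0 counts in every library, and only Ifng, the gene of interferon gamma, passed the filter. Ifng was at 8.69, 7.30 and 6.74 CPM in KO 1, 2 and 3, against 9.04 and 10.7 CPM in WT 1 and 2, below WT in every KO library (log2 change −0.38, SE 0.16, edgeR adjusted p = 0.308). Of 9 receptor chains and Janus kinases, 0 were called, and the median log2 change was −0.034. Only 1, Jak1, was lower with an unadjusted p under 0.05, where 5.62% of all genes were. Jak1, the kinase shared by both interferon receptors, was at 594 ± 15.3 CPM in KO and 669 ± 43.1 CPM in WT (SD, n = 3 and 2; log2 change −0.17, SE 0.067, edgeR adjusted p = 0.276). The receptor chain Ifnar1 was at 134 ± 1.97 CPM in KO and 148 ± 11.4 CPM in WT and Ifngr1 at 205 ± 18.3 CPM in KO and 187 ± 11.6 CPM in WT, and the kinase Jak2 at 146 ± 4.98 CPM in KO and 147 ± 1.06 CPM in WT. Of 8 transcription factors, 0 were called and 0 reached an unadjusted p of 0.05 (median −0.0073). Stat3 was at 272 ± 11.9 CPM in KO and 279.9 ± 15.5 CPM in WT, Irf8 at 271 ± 4.36 CPM in KO and 247 ± 37.2 CPM in WT and Irf1 at 237 ± 2.24 CPM in KO and 249 ± 17.6 CPM in WT.

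Of 10 genes that restrain interferon signalling, 0 were called and 0 reached an unadjusted p of 0.05 (median −0.037). Samhd1, which depletes nucleotides, was at 781 ± 32.9 CPM in KO and 858 ± 27.2 CPM in WT, the phosphatase genes Ptpn6 at 423 ± 26.3 CPM in KO and 464 ± 61.5 CPM in WT and Ptpn1 at 286 ± 16.9 CPM in KO and 283 ± 20.6 CPM in WT, and the corepressor gene Irf2bp2 at 277 ± 34.8 CPM in KO and 249.7 ± 5.86 CPM in WT. Of 16 genes of nucleic acid sensing, 0 were called by edgeR with TMM (median 0.12). An unadjusted p under 0.05 was reached by 4 higher genes, among them Eif2ak2, Mb21d1 and Ifi204, where 10.7% of all genes did so. The 4 of them with the highest CPM, which is not corrected for length, were Ikbke at 134 ± 7.26 CPM in KO and 159.8 ± 37.5 CPM in WT, Tmem173, which encodes STING, at 123 ± 6.86 CPM in KO and 135 ± 13.5 CPM in WT, Trim25 at 116 ± 11.8 CPM in KO and 107 ± 0.502 CPM in WT and Tbk1 at 60.1 ± 1.56 CPM in KO and 61.9 ± 1.91 CPM in WT. Eif2ak2, the kinase PKR that double-stranded RNA activates, was at 19.2, 20.3 and 19.2 CPM in KO 1, 2 and 3, against 16.6 and 14.4 CPM in WT 1 and 2 (log2 change 0.33, SE 0.10, edgeR adjusted p = 0.168). Its groups did not overlap. Of 14 GTPases induced by interferon gamma, 0 were called, 0 reached an unadjusted p of 0.05 and the groups overlapped in all 14 (median −0.070). Gvin1 was at 509.6 ± 59.2 CPM in KO and 549 ± 57.99 CPM in WT, Gbp7 at 171 ± 11.6 CPM in KO and 191 ± 18.3 CPM in WT, Ifi47 at 136 ± 7.41 CPM in KO and 149.6 ± 16.8 CPM in WT and Igtp at 137 ± 4.29 CPM in KO and 145 ± 28.2 CPM in WT.

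Markers of other cells that can carry these transcripts were measured beside them. The summed level was 57.3 to 201 CPM in KO and 99.0 to 143 CPM in WT for 10 neutrophil markers, 723 to 843 CPM in KO and 563 to 638 CPM in WT for 7 monocyte markers, 170.2 to 188 CPM in KO and 181 to 189 CPM in WT for 7 plasmacytoid dendritic cell markers (Bst2 is 1 of them), 32.3 to 36.6 CPM in KO and 25.8 to 29.9 CPM in WT for 7 conventional dendritic cell markers and 2645 to 2801 CPM in KO and 2289 to 3276 CPM in WT for 8 B cell markers. The monocyte sum was higher in each KO library than in each WT library, but its markers were mixed. Csf1r, Lyz2, Cx3cr1 and Fcgr4 were higher in every KO library (17.6% of all genes were). Nr4a1 was lower in every KO library (17.4% of all genes), and Ly6c2 and Ccr2 overlapped. Of the monocyte markers edgeR called only Fcgr4 (log2 change 1.66, edgeR adjusted p = 0.0445), where 0.228% of all genes were called higher. The DESeq2 Wald test called 3 higher, Fcgr4, Lyz2 and Csf1r (5.62% of all genes). The conventional dendritic cell sum was also higher in each KO library, with 4 of 7 markers above WT throughout (17.6% of all genes) and 3 overlapping. The plasmacytoid dendritic cell sum overlapped, and its markers were mixed. Pacsin1 was lower in every KO library, at 52.4, 45.4 and 52.5 CPM in KO 1, 2 and 3, against 73.5 and 54.4 CPM in WT 1 and 2 (log2 change −0.35, edgeR adjusted p = 0.276). Another 3 tested markers overlapped, and 2 low markers were higher in every KO library (17.6% of all genes) and followed haemoglobin (9.28% of all genes). Siglech was at 2.58, 1.79 and 2.29 CPM in KO 1, 2 and 3, against 1.48 and 1.11 CPM in WT 1 and 2 and Cox6a2 at 1.29, 1.18 and 1.08 CPM in KO 1, 2 and 3, against 0.462 and 0.461 CPM in WT 1 and 2, with log2 changes of 0.77 and 1.35 (edgeR adjusted p = 0.241 and 0.0912). The neutrophil and B cell sums overlapped. No marker of these lists was at 0 in all libraries, and 1 was at 0 in a single library, the neutrophil marker Ly6g, at 0.587, 0.532 and 0 CPM in KO 1, 2 and 3, against 0.396 and 0.537 CPM in WT 1 and 2. The part of these cells in the differences of the interferon-stimulated genes was not tested. With the libraries scaled to the 15 pan-T cell genes, which raised the median of all genes to 0.22, the log2 change was 2.53 (SE 0.30) for Rsad2, 2.07 (SE 0.33) for Isg15 and 1.56 (SE 0.22) for Isg20, and edgeR called 7 of the 31 higher (22.6%, against 6.73% of all genes) and 0 lower. The added genes were Oas3, Cmpk2, Ifitm3 and Irf7, while 973 genes in all were called higher and 25 lower, against 33 higher and 8 lower with TMM.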

How the data were processed

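RNA of 5 libraries of splenic CD4+CD25+ cells, 3 KO and 2 WT, was isolated with a column kit before ribosomal RNA removal, per the labels' protocols. The submitters' processing notes name Trimmomatic 0.36, STAR 2.5.2b and the build GRCm38. How reads were counted, on which annotation and with which strand setting is not given in the sources used here, so reads of close copies, overlapping genes and antisense genes are uncertain.

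The authors deposited whole-number counts per gene, on which all tests rest. The deposited TPM values, which correct for transcript length, were used to compare levels between genes. The deposited RPKM values, and a deposited column headed CPM whose sum differs between libraries, were not used. CPM in the text were computed from the counts.

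Low genes were removed with filterByExpr, TMM scaling was applied, and edgeR 4.0.16 was run (quasi-likelihood test, genotype as the only term, Benjamini-Hochberg adjustment over 14460 genes) in R 4.3.3; the scripts were tested on simulated data. DESeq2 1.42.0, other scalings and filters, covariates and left-out libraries were alternatives. Counts of same-group libraries differed beyond counting noise, with a chi-square per degree of freedom of 16.5 to 39.1. The biological coefficient of variation was 13.1%. All 31 genes are named, and of each pathway list every called gene and up to 4 with the highest mean CPM; Eif2ak2, Mb21d1 and Ifi204 were named after their values were seen, and some genes of the lists are not reported here. The genes, lists and motifs were chosen with earlier results of these data known. GENCODE M21 holds 48058 of the identifiers; gene positions come from the deposited table (GRCm38), and promoter sequences are from RefSeq.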

Additional observations from a re-analysis of the deposited data

How the results depend on the processing

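The choice of tool, scaling and libraries decided how many of the 31 genes were called, and in these settings the direction of Rsad2, Isg15, Isg20, Oas3, Cmpk2 and Ifitm3 changed only with the haemoglobin covariate. Called were 41 genes, 0 of them among the 31, with edgeR and TMM; 998 and 7 with pan-T cell scaling; 118 and 1 (Rsad2) without haemoglobin, receptor, mitochondrial and ribosomal RNA genes; 589 and 5 with no filter; 23 and 0 with a mean of at least 50 counts. DESeq2 called 1022 and 7, a false discovery rate of 0.10 gave 579 and 5, and either covariate gave 0 and 0 (unadjusted p under 0.05 for 719 genes with haemoglobin and 1445 with macrophage markers). Leaving out 1 library at a time gave 1 to 334 calls over all genes (1 without KO 2, 3 without WT 2, 11 without KO 3, 45 without WT 1 and 334 without KO 1) and 0 to 3 among the 31; a group left with 1 library was assumed to vary like the other. The median log2 change of the 31 was 0.062, 0.31 with pan-T cell scaling, −0.18 with the haemoglobin covariate, −0.31 with the macrophage covariate and −0.074 to 0.23 without single libraries. The replicate numbers are not said to pair libraries, and same-numbered KO and WT libraries deviated with correlations of −0.026 and 0.039; with the replicate block 32 genes were called, among them Isg15, Oas3 and Rsad2, and the median of the 31 was 0.11. The number of genes in haemoglobin order was 9, and 5 with all 10 pairs, 6 with the near-equal pair of KO 2 and KO 3 left out, 3 against macrophage markers (both chosen after the data were seen) and 5 to 8 without single libraries, 5 of them without WT 2. Log2 changes of genes not called with all libraries changed sign in these settings, and the cause was not tested. With pan-T cell scaling, values were Ifit3 (0.082), Mx2 (0.24), Stat2 (0.18), Ifi27l2a (0.21), Ddx58 (0.16), Dhx58 (0.21), Zbp1 (0.20), Gbp2 (0.15) and Gbp3 (0.053). With a mean of at least 50 counts, values were Mx2 (0.00089). With the replicate block, values were Mx2 (0.11), Ifi27l2a (0.061), Dhx58 (0.041) and Zbp1 (0.0041). With the haemoglobin covariate, values were Isg15 (−0.82), Isg20 (−0.29), Ifit1 (−0.48), Ifitm3 (−0.27), Irf7 (−0.46), Irf9 (−0.17), Oas3 (−0.41), Rsad2 (−0.13), Rtp4 (−0.32), Ifi27l2a (0.10), Dhx58 (0.060), Gbp3 (0.17), Cmpk2 (−0.25), Xaf1 (−0.35), Trim30a (−0.16) and Parp14 (−0.50). With the macrophage covariate, values were Ifit1 (−0.31), Irf7 (−0.0073), Irf9 (−0.37), Mx1 (−0.23), Oas1a (−0.34), Oas2 (−0.023), Oasl1 (−0.24), Bst2 (−0.17), Rtp4 (−0.75), Ifi44 (−1.37), Xaf1 (−0.79), Trim30a (−0.36) and Parp14 (−0.30). Over the fits that each left out 1 library, the ranges that crossed 0 were those of Ifi27l2a (−0.17 to 0.076), Dhx58 (−0.14 to 0.053), Zbp1 (−0.16 to 0.088), Irf9 (−0.083 to 0.13), Ifi44 (−0.25 to 0.47), Xaf1 (−0.17 to 0.24), Trim30a (−0.080 to 0.12), Mx2 (−0.15 to 0.15), Ifit3 (−0.48 to 0.22), Usp18 (−0.61 to 0.11), Gbp2 (−0.17 to 0.0033), Rtp4 (−0.094 to 0.40) and Parp14 (−0.074 to 0.23). Genes at few counts, such as Mx2, Ifi44 and Oasl2, support only large differences at this depth.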
